A study of Mus musculus with 36 samples.

Results

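The 10 genes described here encode parts of the inflammasome and the inflammatory caspases: the sensors Nlrp2 and Nlrp3, the adaptor Pycard, the proteases Casp1, Casp4 and Casp12, the pore protein Gsdmd, and the cytokine genes Il1b, Il18 and Il1rn. They were chosen by symbol, and all array probes whose RefSeq transcript accession maps to one of these symbols were taken. All 10 were on the array, out of 22911 genes with a symbol, and 9 of them passed the filter on dim probes and were tested among 32489 gene names. Il1b did not pass. Expression was measured in Bhas 42 cells, a mouse fibroblast line made from BALB/c 3T3 cells by stable transfer of the v-Ha-ras oncogene and used to test whether an agent promotes cell transformation. All groups therefore carry the ras transgene, controls included, and they come from 1 cell line. Cells were seeded at 1460 cells per cm², treated on day 4 and collected on day 6, after 48 h. Each of the 9 groups had 4 arrays. The synthetic amorphous silica NM-203 was given at 1, 2 and 5 µg/cm² and diatomaceous earth (DE), a natural silica, at 5 µg/cm², and both were set against water (2%). The crystalline silica Min-U-Sil 5 was given at 20 µg/cm² and set against a water control of its own (also 2%). The phorbol ester TPA, a tumour promoter that activates protein kinase C, was given at 0.05 µg/ml and set against its solvent DMSO (0.1%).

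An inflammasome is a protein complex that forms when a sensor of the NLR family meets a danger signal, recruits the adaptor Pycard (ASC) and activates the protease caspase-1. Caspase-1 then cuts the precursors of interleukin-1 beta and interleukin-18 and the pore protein gasdermin D, while caspase-4 (caspase-11 in mouse literature) cuts gasdermin D after it has bound bacterial lipopolysaccharide. Crystalline silica is a classical trigger of the Nlrp3 inflammasome in macrophages. Part of the system is set by transcription, since several of these genes are induced by interferon or NF-kB signalling, and RNA levels say nothing about whether the complex assembled.

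Each sample was hybridised to a 1-colour Agilent array. The arrays lay on 5 slides read on 2 scan days. The controls water and DMSO, with DE, TPA and most arrays of NM-203 at 1 and 5 µg/cm², were on slides 1 to 3 of the first day, while the 4 arrays of the 2 µg/cm² dose of NM-203 and both Min-U-Sil 5 groups were on slides 4 and 5 of the second. The 75th percentile of the intensity ran from 530.8 to 1542 across the 36 arrays and 55.1% to 76.2% of probes were well above background, so the arrays' number and their background limit the precision. Intensities below are given in percent of the array's 75th percentile (scaled intensity), which allows 1 probe to be compared between samples but not 1 probe with another. Of 11 fibroblast markers 10 or 11 were above background on every array. Of 14 macrophage markers between 7 and 11 were, while Fcgr1 and Ptprc were above background on no array. In bulk samples, fewer cells of a type and less RNA per cell cannot be told apart.

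Casp1, Casp4 and Casp12 lie next to each other on mouse chromosome 9, with 0 other listed genes between them. Of the 6 treatment comparisons, Casp4 was called in 5, Casp1 in 3 and Casp12 in 2. Each comparison that called Casp1 or Casp12 also called Casp4, and NM-203 at 2 µg/cm² against water called all of them. The 250 bases before the listed starts of Casp1, Casp4, Casp12 and Il1rn are shown to let their letters be set beside their responses (RefSeq, assembly GRCm38.p6, all on the plus strand, 5′ to 3′). Capitals mark matches to 4 motifs searched on both strands: the NF-kB consensus, the GAS element (TTCNNNGAA), the AP-1 element (TGANTCA) and the interferon-stimulated response element, searched as its core consensus. The NF-kB matches on the plus strand of Casp4 overlap each other, and the match on the other strand lies apart. The Casp1 window (chr9:5298267-5298516), the Casp4 window (chr9:5308599-5308848), the Casp12 window (chr9:5345226-5345475) and the first of the 3 listed Il1rn windows (chr2:24336610-24336859) read as follows.
Casp1: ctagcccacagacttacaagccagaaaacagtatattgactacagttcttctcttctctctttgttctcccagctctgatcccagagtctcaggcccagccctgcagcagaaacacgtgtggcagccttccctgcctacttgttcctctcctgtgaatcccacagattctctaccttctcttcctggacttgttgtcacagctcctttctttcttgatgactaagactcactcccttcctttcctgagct
Casp4: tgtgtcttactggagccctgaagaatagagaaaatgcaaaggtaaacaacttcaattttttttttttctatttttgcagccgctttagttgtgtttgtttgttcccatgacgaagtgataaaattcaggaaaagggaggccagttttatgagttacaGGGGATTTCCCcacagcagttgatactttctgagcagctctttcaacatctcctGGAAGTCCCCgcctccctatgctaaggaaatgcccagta
Casp12: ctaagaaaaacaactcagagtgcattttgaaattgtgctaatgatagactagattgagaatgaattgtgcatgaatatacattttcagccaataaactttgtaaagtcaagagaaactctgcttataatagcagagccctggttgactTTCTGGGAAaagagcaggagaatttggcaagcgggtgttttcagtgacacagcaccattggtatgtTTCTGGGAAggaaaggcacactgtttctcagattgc
Il1rn: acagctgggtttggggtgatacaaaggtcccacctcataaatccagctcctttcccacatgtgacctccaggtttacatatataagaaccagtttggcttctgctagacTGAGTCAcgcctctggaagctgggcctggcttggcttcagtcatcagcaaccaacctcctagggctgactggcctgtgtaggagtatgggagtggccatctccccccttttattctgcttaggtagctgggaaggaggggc

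The Casp4 window held the NF-kB consensus at 2 overlapping places from base -93 to -83 before the start and once on the other strand from -39 to -30. The Casp12 window held the GAS letters 2 times, at -102 to -94 and at -36 to -28, and the first Il1rn window held the AP-1 letters at -141 to -135. The other listed Il1rn windows and the Casp1 window held none of the 4 motifs. Among 32536 distinct windows of the same length in the RefSeq table, 7.28% held the NF-kB consensus, 7.04% GAS, 6.73% AP-1 and 2.98% the interferon element. Windows were found for 9 of the 10 genes. Of the others, an Nlrp3 window held 1 NF-kB match, and those of Nlrp2, Pycard, Il18 and Il1b held none of the motifs. A match is a description of letters and not a site in use, and the width of the NF-kB consensus was settled after the sequences had been read.

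**Figure D1:**
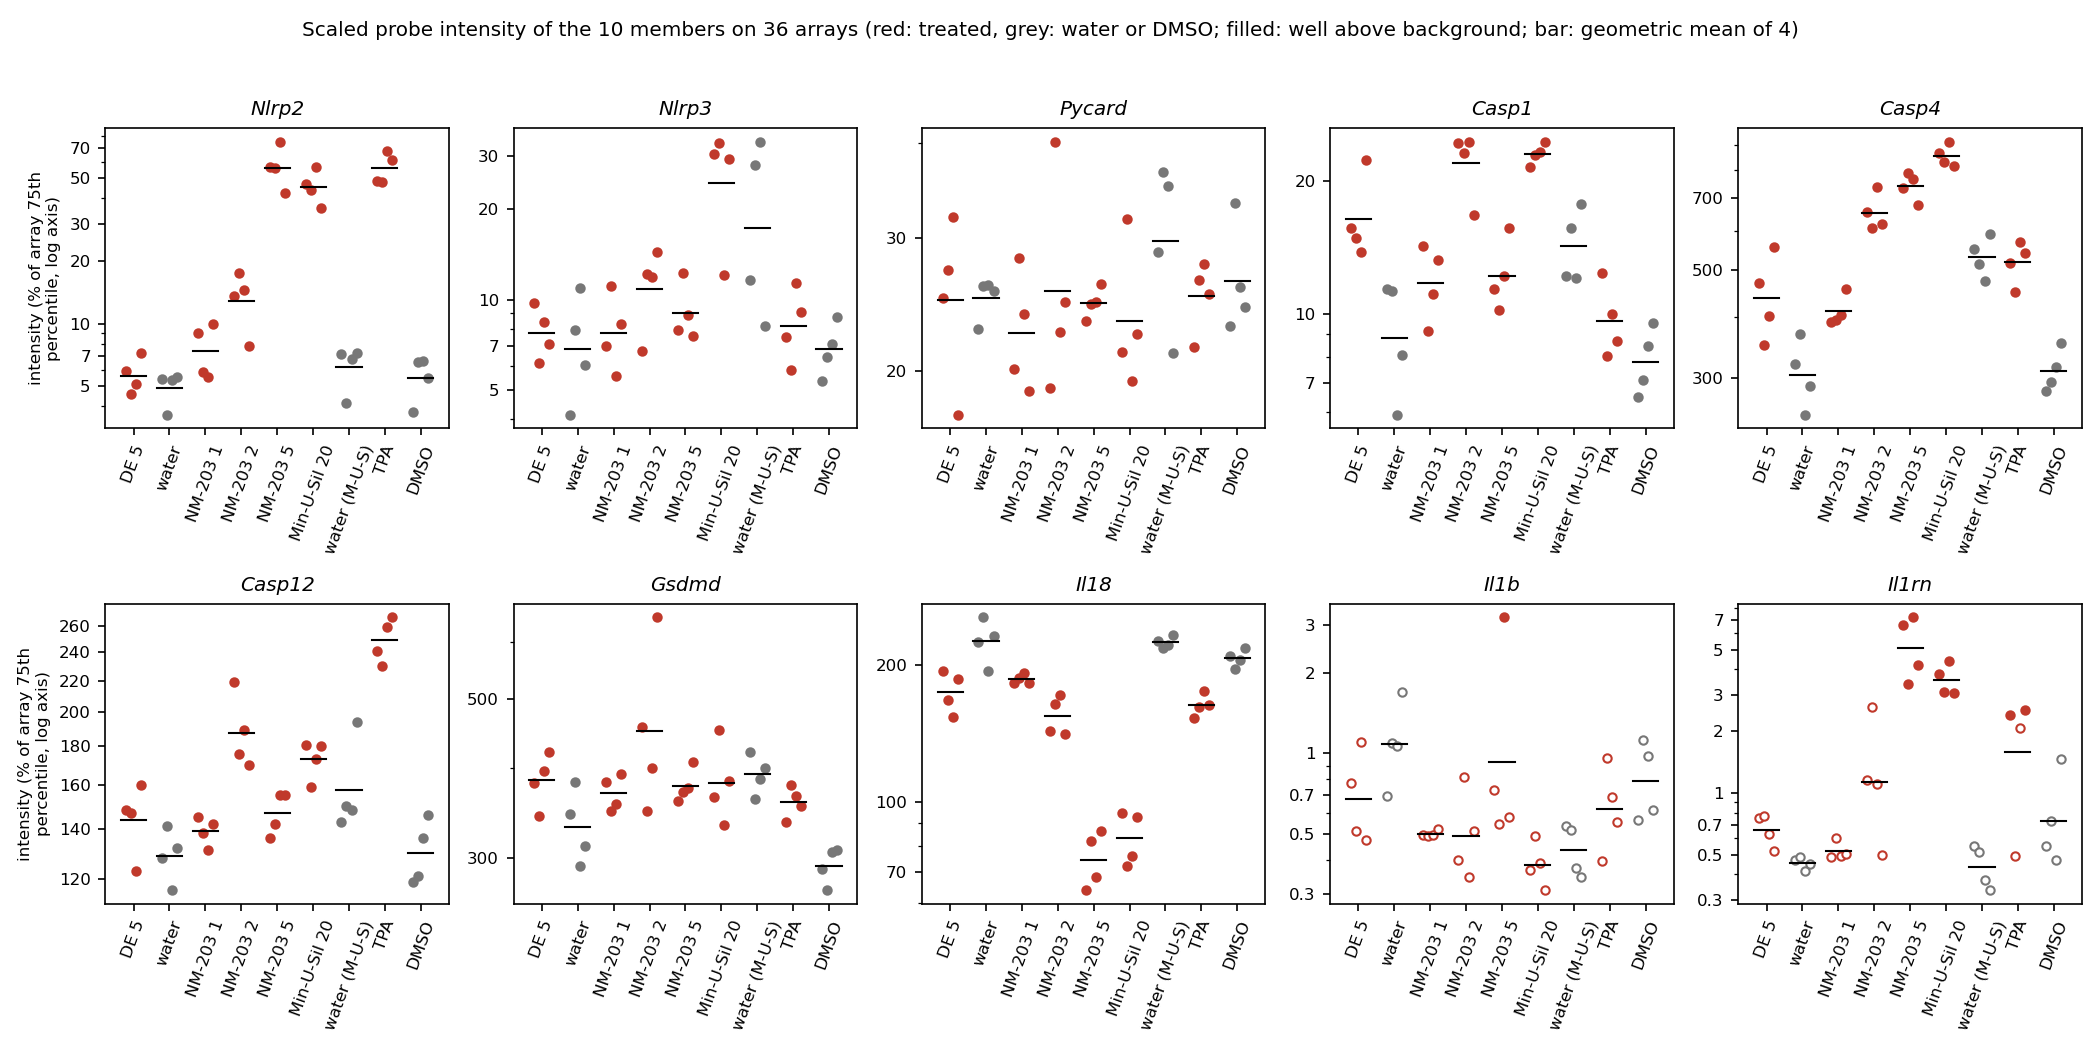
Scaled intensity (percent of the array's 75th percentile, log axis) of the 10 genes on each of 36 arrays, by group (treated in red, water or DMSO in grey, doses of NM-203, DE and Min-U-Sil 5 in µg/cm², M-U-S for the water control of Min-U-Sil 5). Filled points were well above background, open points were not, and bars are geometric means of 4 arrays. Nlrp2 is high in NM-203 at 5 µg/cm², Min-U-Sil 5 and TPA, and Il18 is low in the first 2 of these.

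Exposure to the top dose of NM-203, 5 µg/cm², was set against water first, and the question was which of these genes moved. The sensor Nlrp2, the receptor antagonist Il1rn and the caspase Casp4 rose and the cytokine Il18 fell, while the sensor Nlrp3, the adaptor Pycard, the pore gene Gsdmd and the caspases Casp1 and Casp12 did not pass the test. Thus 4 of 9 tested genes were called (limma, Benjamini-Hochberg adjusted p under 0.05), 3 higher and 1 lower, where 33.1% of all gene names were called, 14% higher and 19.1% lower. A share of 4 in 9 is near this background. Il1rn passed the filter on dim probes only through NM-203 at 5 µg/cm² and Min-U-Sil 5, where it was high, and without it 3 of 8 were called. The same limit holds for each call of Il1rn below and each count that includes it, so its p-values are no separate support. The median log2 change of the 9 genes was 0.40, against 0.01 over all gene names.

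Nlrp2, a member of the NLR sensor family studied mainly in early embryos and, in human cells, as an inflammasome sensor, gave 56.3, 56.0, 74.9 and 42.3% in NM-203 at 5 µg/cm², against 5.41, 3.64, 5.37 and 5.55% in water. All 4 treated arrays lay above all 4 water arrays, by 11.4-fold on average (log2 change 3.51 ± 0.25, SE, n = 4 per group, limma adjusted p = 2.98e-12). Casp4, the lipopolysaccharide-sensing caspase, gave 736, 788, 766 and 677% in NM-203 at 5 µg/cm², against 320, 369, 252 and 288% in water. Its groups did not overlap either, and the rise was 2.43-fold (log2 change 1.28 ± 0.12, adjusted p = 6.39e-10).

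Il18, whose product is a cytokine that caspase-1 matures, went the other way. It gave 63.9, 82.0, 68.5 and 86.1% in NM-203 at 5 µg/cm², against 225, 255, 194 and 232% in water, so that every treated array was below every water array. The fall was 3.03-fold (log2 change -1.60 ± 0.10, adjusted p = 5.56e-13). The RNA of Il1rn, whose product occupies the interleukin-1 receptor without signalling, was well above background on all 4 treated arrays, at 6.61, 3.41, 7.20 and 4.23%, and on 0 of 4 water arrays, at 0.473, 0.486, 0.417 and 0.449%. Il1rn was at least 2.37-fold higher (fitted log2 change 3.49 ± 0.42, adjusted p = 5.49e-08), where a bound like this sets the treated mean against the lowest signal well above background on the control arrays. Its other probe, above background on 3 of the 36 arrays, gave a log2 change of 1.54, and the call ended when dim probes were kept and that probe stood for the gene (adjusted p = 0.0515).

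The 5 other tested genes moved less after NM-203 at 5 µg/cm². Casp1, the effector protease of the complex, gave 11.4, 10.2, 12.2 and 15.7% in treated cells, against 11.4, 11.3, 5.92 and 8.07% in water. These groups overlap, and the log2 change of 0.47 (95% interval 0.06 to 0.88) missed the threshold (adjusted p = 0.0767). Without replicate 1 or replicate 2 of water it passed, with log2 changes of 0.59 and 0.58 (adjusted p = 0.0333 and 0.0366), and with slide as a block it was 0.62 (adjusted p = 0.0152). For Pycard the treated arrays ran from 23.3 to 26.1% and the water arrays from 22.7 to 26.0%, with an interval of -0.43 to 0.39 on the log2 scale. Gsdmd (0.19, interval -0.06 to 0.45), Casp12 (0.19, interval -0.02 to 0.39) and Nlrp3 (0.40, interval -0.36 to 1.16) had wider or slightly positive intervals that included 0. Fibroblast markers moved with this group: 8 of 11 were lower and 0 higher, and their summed intensity was 56500 to 74800% in NM-203 at 5 µg/cm² and 90300 to 103000% in water. The part of this shift in the results was not tested. Of 9 macrophage markers tested, 0 were higher and 3 were lower.

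**Figure D2:**
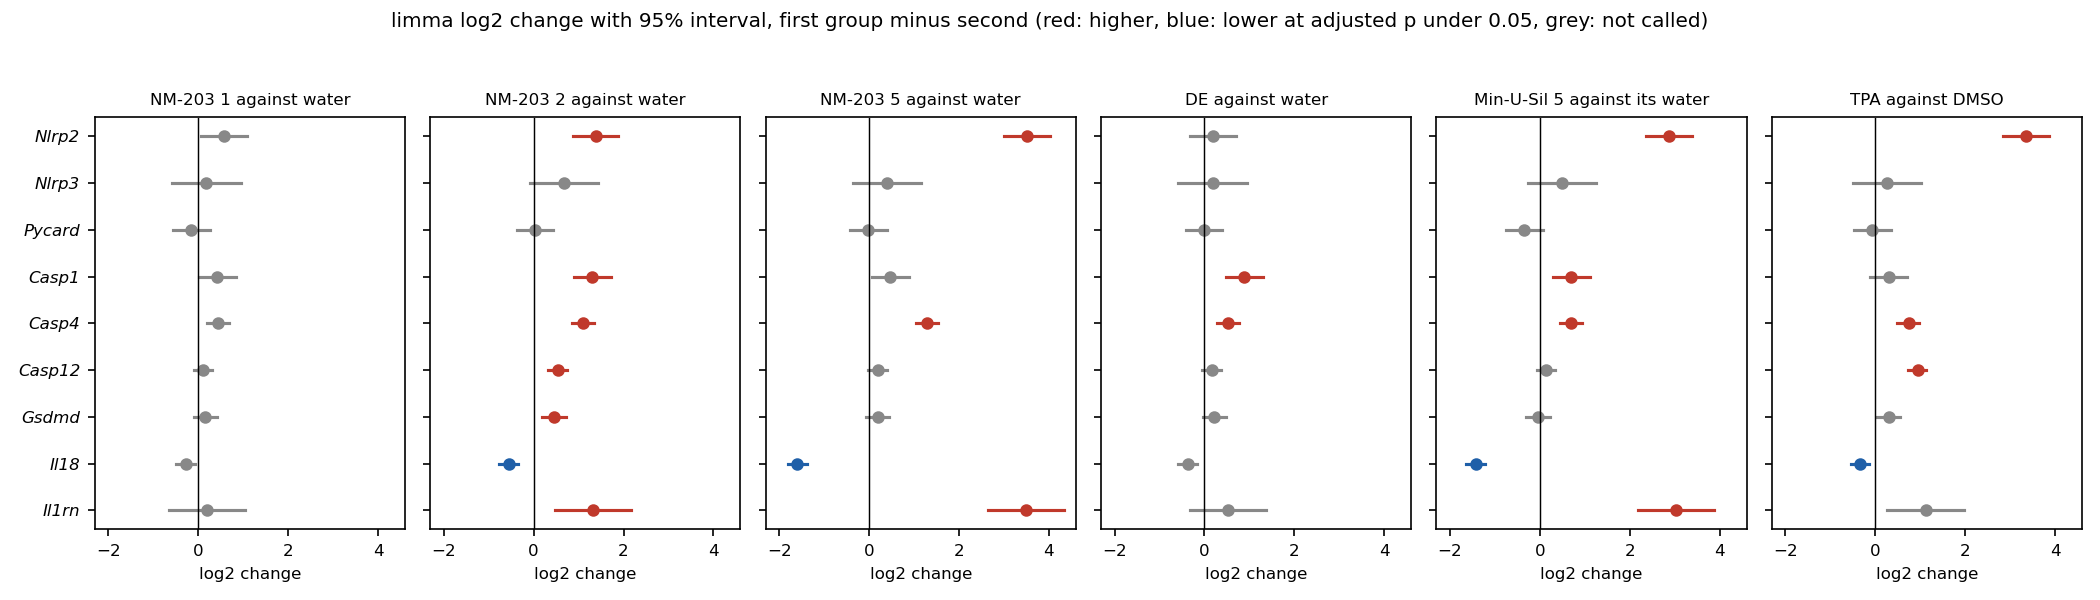
Log2 change with its 95% interval for the 9 tested genes in the 6 treatment comparisons, each treatment minus its own control (red: called higher, blue: called lower, grey: not called, limma adjusted p threshold of 0.05). Nlrp2 is called in 4 comparisons, Casp4 in 5 and Il18 in 4, and Pycard and Nlrp3 in none.

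The 3 doses of NM-203 form a series with water at its low end. At 1 µg/cm² no gene of the 10 was called by limma, where 0.0862% of all gene names were (0.0431% higher, 0.0431% lower). Of the 9 tested, 4 had an unadjusted p under 0.05. The share of all gene names at that unadjusted threshold was not computed, so this count has no background to be read against. Casp4 gave 391, 394, 404 and 457% at that dose, against 320, 369, 252 and 288% in water. The ranges did not overlap but the log2 change of 0.43 ± 0.12 did not pass (adjusted p = 0.198). Il18 gave 183, 187, 192 and 183% at 1 µg/cm² and likewise lay below every water array, with a log2 change of -0.28 ± 0.10 (adjusted p = 0.522). Group means of Nlrp2 (log2 scale) were -4.34 in water, -3.77 at 1 µg/cm², -2.97 at 2 µg/cm² and -0.83 at 5 µg/cm², those of Casp4 1.61, 2.04, 2.71 and 2.89, and those of Il18 1.17, 0.90, 0.63 and -0.42. The means of these 3 genes thus kept 1 direction along the series. Casp1 did not: its means were -3.50, -3.08, -2.19 and -3.03. All arrays at 2 µg/cm² were on the second scan day, and all water arrays and most at 1 and 5 µg/cm² on the first. At 2 µg/cm², dose and scan day therefore cannot be told apart in this series. Controls of the second day, all from the water group of Min-U-Sil 5, were higher in Casp1 (12.1 to 17.8% against 5.92 to 11.4%) and Casp4 (474 to 591% against 252 to 369%). In these controls, group and scan day cannot be told apart either. Replicate 1 at 5 µg/cm², read on the second day, gave 736% for Casp4 and 11.4% for Casp1. First-day replicates of that dose gave 677 to 788% and 10.2 to 15.7%. Replicate 4 at 1 µg/cm², also read on the second day, gave 457% and 13.3%, against 391 to 404% and 9.18 to 14.3% on the first.

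Between 5 and 1 µg/cm² directly, where 28.1% of gene names were called (12.6% higher, 15.5% lower), 4 of 9 genes were: Nlrp2 was 7.65-fold higher (log2 change 2.94 ± 0.25, adjusted p = 1.72e-10), Casp4 1.80-fold higher (0.85 ± 0.12, adjusted p = 1.44e-06), Il18 2.50-fold lower (-1.32 ± 0.10, adjusted p = 4.59e-11) and Il1rn at least 2.18-fold higher (adjusted p = 2.17e-07). None of these pairs of groups overlapped. Casp1 differed by 0.05 between these doses, with an interval of -0.36 to 0.46.

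At 2 µg/cm², where 25% of all gene names were called against water (16.2% higher, 8.86% lower), 7 of the 9 genes were called, 6 higher and 1 lower. The median log2 change of the 9 was 0.67, against 0.11 over all gene names. No slide and no scan day held both of these groups, so the comparison also sets slides 4 and 5 against slides 1 to 3. Markers of several cell types moved with this dose: 5 of 11 fibroblast markers were lower and 0 higher, 2 of 9 tested macrophage markers were higher (Adgre1, above background on 1 of 4 treated arrays and on 0 of 4 water arrays, and Aif1) and 1 lower (Itgam), and 2 of 4 tested epithelial markers were higher (Krt5 and Krt14). The fibroblast sums overlapped, at 89600 to 117000% at 2 µg/cm² and 90300 to 103000% in water, and the part of these markers in the results was not tested. Casp1 gave 24.4, 23.2, 24.6 and 16.8% at 2 µg/cm², against 11.4, 11.3, 5.92 and 8.07% in water. The groups did not overlap (2.49-fold, log2 change 1.31 ± 0.20, adjusted p = 1.76e-05). Casp4 gave 657, 610, 737 and 619% at 2 µg/cm² and was 2.15-fold higher than in water (1.1 ± 0.12, adjusted p = 1.65e-07), again without overlap.

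Nlrp2 gave 13.5, 17.5, 14.5 and 7.79% at 2 µg/cm² and was 2.60-fold higher than in water (1.38 ± 0.25, adjusted p = 0.00013). Casp12, a caspase close to Casp4 in sequence that has been linked to stress of the endoplasmic reticulum in mice, gave 219, 176, 189 and 170% against 128, 141, 116 and 132% in water (1.45-fold, adjusted p = 2e-04). It lost its call when its 2 probes were averaged (log2 change 0.38, adjusted p = 0.0541). Il18 fell 1.46-fold to 143, 164, 172 and 141%, against 225, 255, 194 and 232% in water (-0.55 ± 0.10, adjusted p = 0.000215). With slide or scan day as a block its log2 change was -0.38 and the call ended (adjusted p = 0.147 and 0.165).

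Weaker evidence stood behind the other 2 calls at this dose. Gsdmd gave 457, 349, 401 and 651% at 2 µg/cm², against 345, 383, 292 and 311% in water, and its groups overlapped (log2 change 0.45 ± 0.13, adjusted p = 0.00854). Its other probe gave -0.19, and without replicate 4 of the treated group the change was 0.27 (adjusted p = 0.0568). Il1rn was called (adjusted p = 0.0198) with all arrays of both groups below background, so no fold is given, and without replicate 2 of the treated group the log2 change was 0.92 (adjusted p = 0.11).

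The water control of Min-U-Sil 5 shared slides 4 and 5 with NM-203 at 2 µg/cm² and differed from the other water group in these caspases. Casp4 gave 551, 513, 474 and 591% in that control, where the 8 water and DMSO arrays of the first scan day ran from 252 to 369%. Casp1 gave 12.2, 15.7, 12.1 and 17.8% in it, where the 8 arrays of the first day ran from 5.92 to 11.4%. The controls of the 2 days did not overlap for either gene. Against this control, with slide as a block, NM-203 at 2 µg/cm² kept a higher Casp1 (log2 change 0.62, limma adjusted p = 0.0227). Nlrp2 (1.02, adjusted p = 0.0101) and Il18 (-0.53, adjusted p = 0.00112) kept their calls there too. So did Il1rn (adjusted p = 0.0244), which was below background in both groups. Casp4 (0.26, adjusted p = 0.113), Casp12 (0.23, adjusted p = 0.139) and Gsdmd (0.17, adjusted p = 0.385) were not called. On slide 5 alone, where 3 treated arrays meet 2 of these water arrays, 0 genes were called by limma and the log2 changes were 0.55 for Casp1, 0.23 for Casp4, 0.69 for Nlrp2 and -0.60 for Il18. With water and slide as a block, which reach each other only through the groups that slides share, Casp1, Casp4 and Casp12 were called (1.40, 1.11 and 0.64). Nlrp2 (1.12, adjusted p = 0.0946), Il18, Gsdmd and Il1rn were not.

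**Figure D3:**
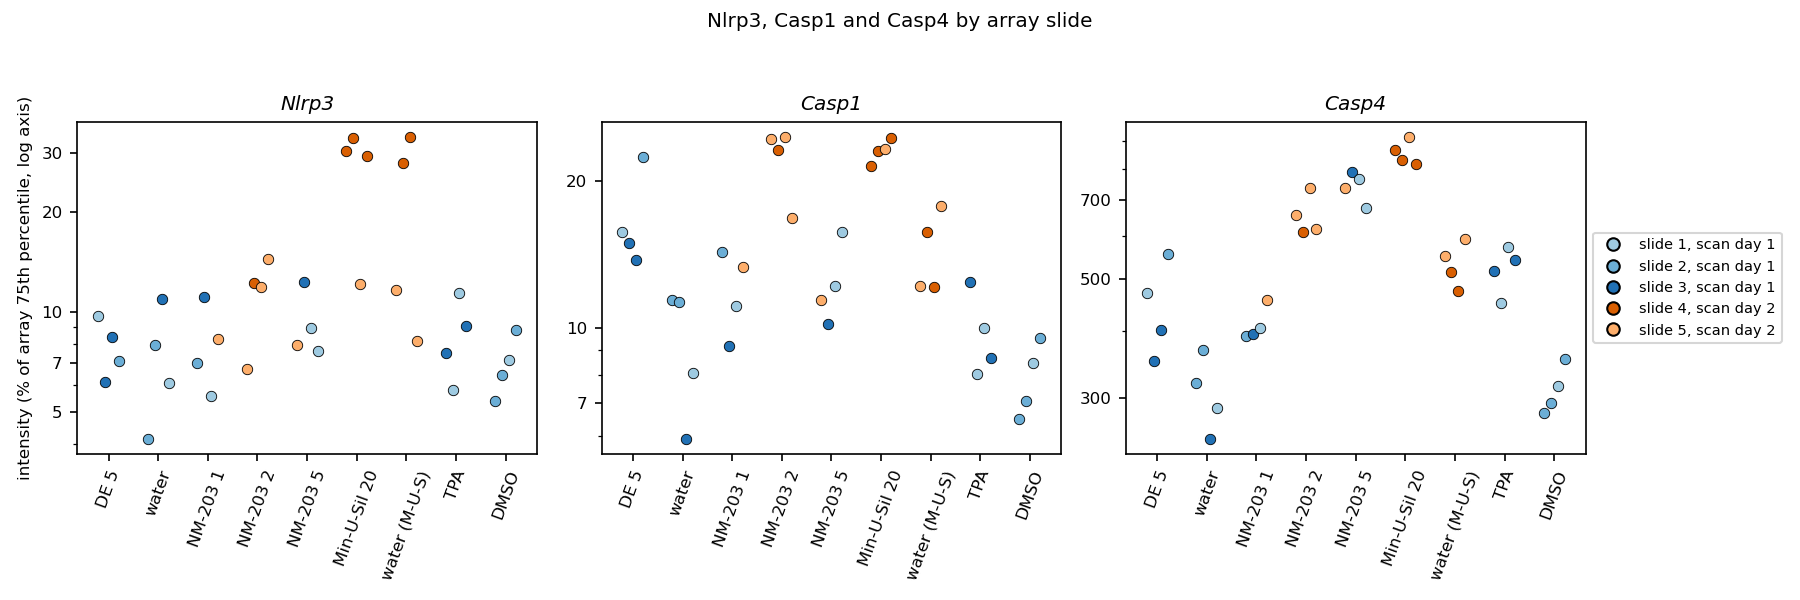
Scaled intensity (percent of the array's 75th percentile, log axis) of Nlrp3, Casp1 and Casp4 on each array, coloured by slide and scan day. Nlrp3 is above 28% on 5 of the 6 arrays of slide 4, treated and control alike, and Casp4 in the water control of Min-U-Sil 5 (474 to 591%) lies above all water and DMSO arrays of the first scan day (252 to 369%).

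Diatomaceous earth at 5 µg/cm² was compared with the same water. Both lead inflammatory caspases rose and nothing else among the 10 was called: 2 of 9 tested genes, where 1.01% of all gene names were called (0.557% higher, 0.449% lower). Casp1 gave 15.7, 14.9, 13.8 and 22.4% in DE, against 11.4, 11.3, 5.92 and 8.07% in water, and the groups did not overlap (1.85-fold, log2 change 0.89 ± 0.20, adjusted p = 0.022). Casp4 gave 470, 351, 402 and 556% in DE, against 320, 369, 252 and 288% in water, with 1 DE array below the highest water array (1.44-fold, 0.53 ± 0.12, adjusted p = 0.0243). Nlrp2 (0.19, interval -0.32 to 0.70), Gsdmd (0.22, interval -0.04 to 0.47) and Il18 (-0.37, adjusted p = 0.0844) were not called, and Il1rn was below background on all 8 arrays.

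The DE calls were near the threshold. Leaving out replicate 3 of water gave log2 changes of 0.70 for Casp1 and 0.43 for Casp4 (adjusted p = 0.155 for each), replicate 4 of water 0.84 and 0.50 (0.105 and 0.111), replicate 1 of DE 0.91 and 0.49 (0.0542 and 0.0873), and replicate 4 of DE 0.74 and 0.41 (0.0881 and 0.104). The direction held in each slide with both groups: Casp1 differed by 0.96, 0.99 and 1.27 within slides 1, 2 and 3 and Casp4 by 0.70, 0.69 and 0.57, with no call within a slide, each of which held 1 or 2 arrays of either group. With slide as a block both stayed called, at 1.03 for Casp1 and 0.59 for Casp4 (adjusted p = 0.00325 and 0.00532). In a fit of these 2 groups alone neither was called (adjusted p = 0.356 and 0.435).

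NM-203 and DE were both given at 5 µg/cm², which allows a direct comparison at 1 mass dose of amorphous silica made in different ways. Of 9 tested genes 4 differed, where 29.2% of gene names did (14% higher, 15.2% lower). Nlrp2 was 10-fold higher in NM-203 (log2 difference 3.32 ± 0.25, adjusted p = 1.84e-11), Il1rn at least 2.02-fold higher (adjusted p = 1.33e-06) and Casp4 1.69-fold higher (0.76 ± 0.12, adjusted p = 8.56e-06). Il18 was 2.35-fold lower in NM-203 (-1.23 ± 0.10, adjusted p = 1.62e-10). Casp1 lay at 10.2 to 15.7% in NM-203 and at 13.8 to 22.4% in DE, a log2 difference of -0.42 (interval -0.83 to -0.01) that was not called (adjusted p = 0.125). Pycard, Casp12 and Gsdmd differed by -0.01, 0.03 and -0.03, with intervals of -0.42 to 0.40, -0.18 to 0.23 and -0.28 to 0.23.

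Min-U-Sil 5, the crystalline silica, was compared with its own water at 20 µg/cm². The genes called were those of NM-203 at 5 µg/cm² with Casp1 added: 5 of 9, of which 4 rose and 1 fell, where 25.6% of all gene names were called (11.6% higher, 13.9% lower). Pycard, at -0.35 (adjusted p = 0.237), became a call with slide as a block (-0.50, adjusted p = 0.02) and with array weights (-0.59, adjusted p = 0.000962). Nlrp2 gave 47.0, 43.8, 56.6 and 35.8% in Min-U-Sil 5, against 7.11, 4.15, 6.74 and 7.22% in its water, without overlap (7.35-fold, log2 change 2.88 ± 0.25, adjusted p = 4.58e-10). Il18 gave 94.3, 72.3, 75.9 and 92.6%, against 226, 218, 221 and 233% in its water, and every treated array was lower (2.70-fold, -1.43 ± 0.10, adjusted p = 1.66e-11).

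Casp4 gave 866, 830, 915 and 815% in Min-U-Sil 5, against 551, 513, 474 and 591% in its water (1.61-fold, 0.69 ± 0.12, adjusted p = 4.43e-05), and Casp1 21.5, 23.0, 23.3 and 24.5% against 12.2, 15.7, 12.1 and 17.8% (1.62-fold, 0.70 ± 0.20, adjusted p = 0.00908). Neither pair of groups overlapped. Il1rn was above background on all 4 treated arrays (3.80, 3.11, 4.42 and 3.06%) and on 0 of 4 control arrays, at least 1.70-fold higher (adjusted p = 1.34e-06). When dim probes were kept and its other probe stood for it, the log2 change was 1.05 (adjusted p = 0.264). Both slides held both groups, and all 5 genes kept their direction within each: 5 were called within slide 4 (3 treated and 2 control arrays) and 4 within slide 5 (1 treated and 2 control arrays), where Casp1 was not (log2 change 0.66, adjusted p = 0.223). In tests within a slide the spread came from all groups, so a lone array is assumed to vary like the others. The share of all gene names called in tests within a slide is not given, so their counts have no background beside them. Fibroblast markers moved here too, 8 of 11 lower and 0 higher, with sums of 70100 to 78300% in Min-U-Sil 5 and 91800 to 129000% in its water. Their part in the results was not tested.

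Nlrp3, the sensor most often named with silica, differed more between slides than between groups. In Min-U-Sil 5 it gave 30.5, 33.3 and 29.5% on slide 4 and 12.1% on slide 5, against 28.1 and 33.6% on slide 4 and 11.6 and 8.16% on slide 5 in its water. Within slide 4 the log2 change was 0.01 ± 0.35 and within slide 5 it was 0.31 ± 0.47. Across all 4 arrays per group it was 0.50 (interval -0.26 to 1.26, adjusted p = 0.386). The 30 arrays of the other slides ran from 4.14 to 14.4%, and slide 4 held 1 more array, of the 2 µg/cm² dose of NM-203 (replicate 2), which gave 12.2%. In the 5 other treatment comparisons the log2 change of Nlrp3 ran from 0.18 to 0.67 with no call. Of the macrophage markers, 8 to 11 of 14 were above background on the arrays of slide 4 and 7 to 10 on the others. Their summed intensity was 1410 to 2050% on slide 4 and 1100 to 2970% elsewhere, and their part in the Nlrp3 values was not tested.

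TPA was compared with DMSO, as the standard promoter of the transformation assay. Of 9 tested genes 4 were called, 3 higher and 1 lower, where 11.7% of all gene names were (4.89% higher, 6.78% lower). Nlrp2 gave 48.7, 48.1, 67.9 and 61.2% in TPA, against 3.75, 6.54, 6.60 and 5.48% in DMSO, with no overlap (10.2-fold, log2 change 3.36 ± 0.25, adjusted p = 8.94e-11). Casp12 gave 241, 230, 259 and 267% in TPA, against 119, 121, 136 and 146% in DMSO, also with no overlap (1.91-fold, 0.94 ± 0.10, adjusted p = 7.06e-08). Its other probe gave a log2 change of 1.14. Casp12 in TPA stood above every other array of the series, the highest of which, in NM-203 at 2 µg/cm², gave 219%.

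Casp4 gave 517, 450, 571 and 542% in TPA, against 282, 294, 316 and 354% in DMSO (1.67-fold, 0.74 ± 0.12, adjusted p = 5.46e-05). Il18 gave 153, 162, 175 and 163%, against 209, 196, 205 and 218% in DMSO, so the groups were apart, but the fall was only 1.27-fold (-0.34 ± 0.10, adjusted p = 0.0251). That call ended without replicate 1 or 4 of DMSO (log2 changes of -0.34 and -0.32, adjusted p = 0.0595 and 0.0788) and without replicate 1, 2 or 4 of TPA (-0.31, -0.34 and -0.34, adjusted p = 0.0795, 0.0508 and 0.0566), and with slide as a block (-0.27, adjusted p = 0.157). Il1rn gave 2.40, 0.490, 2.07 and 2.53% in TPA, with 2 of the 4 arrays above background, against 0.548, 0.731, 0.470 and 1.47% in DMSO, and was not called (adjusted p = 0.0831). It passed without replicate 2 of TPA (log2 change 1.68, adjusted p = 0.00182) or replicate 4 of DMSO (1.46, adjusted p = 0.0264). Casp1 (0.30, interval -0.11 to 0.71), Gsdmd (0.30, interval 0.04 to 0.55, adjusted p = 0.138) and Pycard (-0.07, interval -0.48 to 0.34) were not called, but Casp1 was with slide as a block (0.66, adjusted p = 0.044). Fibroblast markers moved here as well, 4 of 11 lower and 0 higher, with sums of 82100 to 89600% in TPA and 100000 to 113000% in DMSO, and their part in the results was not tested. Slide 1 was the only one with both groups (2 TPA arrays, 1 DMSO array, spread from all groups as above), and there 1 gene, Nlrp2, was called, with log2 changes of 0.84 for Casp12 (adjusted p = 0.0543) and 0.68 for Casp4 (adjusted p = 0.0942).

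The change of NM-203 at 5 µg/cm² against water was then set against the change of TPA against DMSO in 1 contrast, which called 4 of 9 genes where 14.8% of gene names were called (7.74% higher, 7.06% lower). Nlrp2 changed by amounts that differed by 0.16 on the log2 scale (interval -0.56 to 0.87). Casp12 responded less to NM-203 (difference -0.75 ± 0.14, adjusted p = 0.00035). Il18 fell further with NM-203 (-1.25 ± 0.15, adjusted p = 6.37e-07). The Il1rn difference was called (adjusted p = 0.00482), but it rests on water and DMSO arrays that were all below background, so its size is not given. Casp4 rose further with NM-203 by 0.54 ± 0.17 (adjusted p = 0.0264), a call that ended without replicate 3 or 4 of water (0.45 and 0.52), replicate 2 or 3 of NM-203 (0.52 and 0.53), replicate 4 of DMSO (0.48) or replicate 2 of TPA (0.48), and with slide as a block (0.44, adjusted p = 0.0708). With probes kept when dim, Il1rn was not called (adjusted p = 0.758).

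The same contrast between NM-203 at 5 µg/cm² and Min-U-Sil 5 at 20 µg/cm², each against its own water, called 0 of 9 genes by limma, where 0.2% of gene names were called (0.0923% higher, 0.108% lower). An unadjusted p under 0.05 was found for 1 gene, again without the share of all gene names at that threshold. The doses differ by mass, so the values stand side by side. The log2 changes were 3.51 and 2.88 for Nlrp2 (difference 0.64, interval -0.08 to 1.35), -1.60 and -1.43 for Il18 (difference -0.16, interval -0.46 to 0.13) and 1.28 and 0.69 for Casp4 (difference 0.59, interval 0.24 to 0.94, adjusted p = 0.189). With array weights the Casp4 difference of 0.55 was called (adjusted p = 0.0362), and with slide as a block 0.61 was not (adjusted p = 0.145). The treated arrays had the other order, with Casp4 at 677 to 788% in NM-203 and 815 to 915% in Min-U-Sil 5. Their waters ran from 252 to 369% and from 474 to 591%. Against the water of Min-U-Sil 5, Casp4 in NM-203 changed by 0.48, less than the 0.69 of Min-U-Sil 5. The order of the 2 Casp4 changes thus depended on the water control used.

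**Figure D4:**
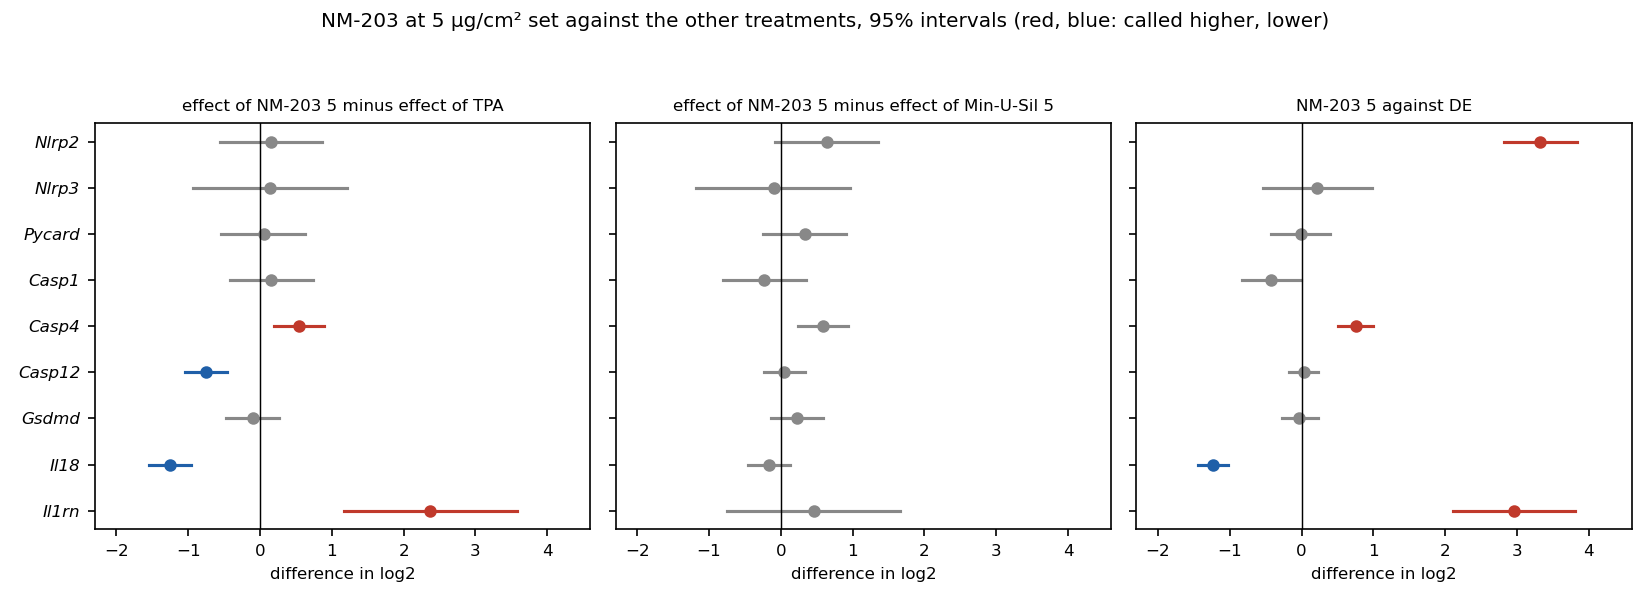
NM-203 at 5 µg/cm² set against TPA and Min-U-Sil 5 (difference between changes, each against its own control) and against DE (direct difference), on the log2 scale with 95% intervals for the 9 tested genes. Red and blue mark calls above and below 0. Casp12 is below 0 against TPA, no gene is called against Min-U-Sil 5, and Nlrp2, Il1rn and Casp4 are above 0 and Il18 below 0 against DE.

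Il1b, the main product of the complex in macrophages, was close to the floor. Of its 2 probes 1 was above background on 0 of 36 arrays and the other on 1, replicate 3 of NM-203 at 5 µg/cm². That array gave 3.22%, against 0.547 to 0.730% in the 3 others of its group and 0.695 to 1.70% in water. Il1rn was above background on 10 of 36 arrays: 4 of NM-203 at 5 µg/cm², 4 of Min-U-Sil 5 and 2 of TPA. The other 8 genes were above background on all 36.

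Across the 9 groups the order of the levels differed between genes. For Nlrp2 the means of NM-203 at 5 µg/cm², TPA and Min-U-Sil 5 (-0.83, -0.84 and -1.15 on the log2 scale) overlapped in range and stood clear of NM-203 at 2 µg/cm² (-2.97 ± 0.50, SD, n = 4), and the ranges of each neighbouring pair below that overlapped down to water (-4.34 ± 0.29). For Il18 the 3 controls came highest (1.17, 1.17 and 1.05), NM-203 at 1 µg/cm², DE, TPA and NM-203 at 2 µg/cm² followed (0.90, 0.81, 0.71 and 0.63), and Min-U-Sil 5 and NM-203 at 5 µg/cm² came last (-0.27 and -0.42). The last 2 groups lay below all arrays of the others, while the lowest water array and the highest DE array met at 194%. Pycard had no gap at all, with means from -2.16 to -1.75.

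For each gene called in 2 or more of the 6 treatment comparisons, the genes most like it over the 9 group means were found by Pearson's r. This is a description, since these means share arrays, scaling and controls. The groups also differed in slide and scan day, so likeness through treatment and likeness through scan day cannot be told apart. Those of Casp1 were Jak2 (r = 0.994), a kinase of cytokine receptors, Ly6f (0.970) and Ifi209 (0.950), an interferon-inducible gene. Those of Casp4 were the interferon-inducible Ifi202b (0.986), Kif24 (0.986) and Myef2 (0.985). Nlrp2 was most like Ipo7 (0.976), Abraxas1 (0.976) and Emx2 (0.975), Casp12 most like Card10 (0.960), Wt1 (0.949) and Phex (0.943), Il18 most like Rab3a (0.997), Tctn1 (0.996) and Sapcd1 (0.994), and Il1rn most like Cdr2 (0.992), Pfas (0.987) and Pold2 (0.984).

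A wider set of 80 genes of sensors, activation and pore formation, cytokines and receptors, priming signals and brakes held 69 tested genes. After NM-203 at 5 µg/cm² 15 of the 69 rose and 21 fell, where 14% of all gene names rose and 19.1% fell, with a median log2 change of 0.08 against 0.01 over all gene names. The 3 largest fitted rises were in Il1rl1, the receptor of interleukin-33 (6.57-fold, adjusted p = 3.39e-14), Zbp1, a sensor of Z-form nucleic acid in necroptosis (5.38-fold, adjusted p = 4.67e-12), and the interferon factor Irf7 (3.22-fold, adjusted p = 1.22e-09). The 3 largest fitted falls were in Il33, an alarmin of the interleukin-1 family (above background on 0 of 4 treated and 4 of 4 water arrays, at least 5.02-fold lower, adjusted p = 4.43e-13), the decoy receptor Il1r2 (above background on 0 of 4 treated and 2 of 4 water arrays, no fold given, adjusted p = 3.54e-06) and Cflar, an inhibitor of caspase-8 (2.34-fold lower, adjusted p = 1.15e-09). Il1rl1 and its ligand Il33 thus moved in opposite directions.

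After Min-U-Sil 5, 10 of the 69 rose and 19 fell, where 11.6% of all gene names rose and 13.9% fell. By fitted change, Il1rl1 (5.67-fold), the interleukin-18 receptor subunit Il18rap (2.82-fold) and the necroptosis executioner Mlkl (2.30-fold) rose most. Il18rap was above background on 4 of 4 treated arrays but on only 1 of 4 control arrays, so its fold is uncertain. Il1r2 (at least 1.58-fold lower, above background on 0 of 4 treated arrays), Il33 (4.02-fold lower) and the ATP-gated channel P2rx4 (1.76-fold lower) fell most. After TPA, 11 rose and 7 fell, where 4.89% of all gene names rose and 6.78% fell. By fitted change, Il18rap (at least 2.20-fold, above background on 0 of 4 DMSO arrays), Il1rl1 (4.74-fold) and Zbp1 (2.54-fold) rose most, while the survival gene Bcl2 (1.96-fold lower), the inhibitory receptor Cd300a (1.76-fold lower) and P2rx4 (1.73-fold lower) fell most. Il33 was not called there (log2 change 0.36, adjusted p = 0.385), and its change was called lower with NM-203 at 5 µg/cm² than with TPA (adjusted p = 1.01e-08), with no size given because it was below background in NM-203.

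At the lower doses and after DE the counts were as follows. NM-203 at 2 µg/cm² gave 20 higher and 6 lower, where 16.2% of all gene names rose and 8.86% fell. The largest fitted rises were in the sensor Naip1 (at least 1.78-fold, above background on 3 of 4 treated and 0 of 4 water arrays, adjusted p = 0.00682), Irf7 (2.74-fold) and Zbp1 (2.70-fold), with Il1r2 (at least 1.09-fold lower, above background on 0 of 4 treated and 2 of 4 water arrays), the alarmin Hmgb1 (1.70-fold lower) and the serpin Serpinb9 (1.54-fold lower) lowest, in the same comparison across scan days as above. DE gave 5 higher and 0 lower, where 0.557% of all gene names rose and 0.449% fell, with Zbp1 (1.99-fold, adjusted p = 0.00276), Il1rl1 (1.86-fold, adjusted p = 0.0018) and Irf7 (1.63-fold, adjusted p = 0.0261) first. NM-203 at 1 µg/cm² gave 0 of either by limma. Between NM-203 at 5 µg/cm² and Min-U-Sil 5, 4 of the 69 differed in their change. Among them, Zbp1 (difference 1.33) and Irf7 (1.31) were higher with NM-203, and Il33 was lower (adjusted p = 0.0291), with no size given for the same reason as above.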

How the data were processed

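Bhas 42 RNA from 36 samples was measured on 1-colour Agilent arrays with Cy3-labelled cRNA. The deposited intensity values came from Agilent Feature Extraction 11.0.1.1 and its 1-colour protocol, per the file headers; the deposited headers list 0 dye-normalization probes and do not record the background steps behind the processed signal. The value table deposited by the authors holds log2 values centred per probe; their scaling is not given in the sources used here. Its column medians ran from -0.255 to 0.27, and 33 of 36 arrays matched their own column best. The other 3, replicates 1 to 3 of Min-U-Sil 5, matched columns of other Min-U-Sil 5 replicates, so scanner files were used. Spot flags were used as deposited.

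Each array's processed intensities were put on the log2 scale and shifted by their 75th percentile, taken without control spots. Between 74 and 380 spots per array with an outlier flag were dropped, 0 spots were saturated, and repeated spots were averaged by probe. Testing was limited to the 40676 probes that 3 or more of the 4 arrays of some group put well above background, and the brightest probe stood for a gene. Symbols came from a RefSeq listing for GRCm38.p6, matched by accession without version; probes were designed on mm9, and their coordinates are not given. All 9 group means were fitted together with limma 3.58.1 in R 4.3.3 (27 residual degrees of freedom), and adjusted p-values are Benjamini-Hochberg over 32489 gene names. Values after ± are standard errors unless named otherwise, and intervals are 95% intervals of limma's fit. A fold against a group with no array above background is a bound.

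In simulated arrays with the real means and spreads (32335 genes, NM-203 at 5 µg/cm² against water), 58% of genes changed by a log2 of 1 and 81% of those changed by 2 were recovered, with 5 false calls. Only 100 genes were changed at each size, where 33.1% of gene names were called in the data. No slide or scan-day effect was built in. The recovered shares therefore need not hold for the data, and false calls through slides were not measured. Figures were drawn with Python 3.11.15, pandas 2.3.3 and matplotlib 3.10.9. The genes and the wider lists were chosen with earlier results of these data known. The text names all 10 genes, from the wider lists the 3 called genes of largest fitted change in each direction (Il33 after TPA was named after its value was seen), and the 3 genes most alike; 1 gene that this rule names is not reported here. Although 4 independent experiments are mentioned in the series record, the labels do not link arrays to them, so p-values measure only the spread between these samples. Alternatives were other scalings, filters, probe choices, blocks, array weights, controls, single slides and each replicate left out.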

Additional observations from a re-analysis of the deposited data

Results flagged for a closer look

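In 8 of 90 groups of 4 arrays, 1 array stood apart from the 3 others by more than Dixon's 95% critical value, where chance alone gives about 1 in 20 such groups. Values are log2 of the scaled intensity. Nlrp2 was low in replicate 2 of water (-4.78, or 3.64%, where the others gave 5.37 to 5.55%) and in replicate 2 of the water control of Min-U-Sil 5 (-4.59, or 4.15%, where the others gave 6.74 to 7.22%). Nlrp3 was low in replicate 3 of Min-U-Sil 5 (-3.05, or 12.1%, where the others gave 29.5 to 33.3%), the one array of that group on slide 5. Casp1 was low in replicate 4 of NM-203 at 2 µg/cm² (-2.58, or 16.8%, where the others gave 23.2 to 24.6%), and Pycard in replicate 1 of water (-2.14, or 22.7%, where the others gave 25.5 to 26.0%). Il1b was high in replicate 3 of NM-203 at 5 µg/cm² (-4.96, or 3.22%), the only array with Il1b above background. Il1rn was low in replicate 2 of TPA (-7.67, or 0.490%, where the others gave 2.07 to 2.53%) and high, though below background, in replicate 2 of NM-203 at 1 µg/cm² (-7.38, or 0.600%, where the others gave 0.488 to 0.505%).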

How the results depend on the processing

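Of the counts of called genes under all alternatives, 226 stayed within 1.5 times the reported count and 20 moved. The shares of all gene names called under the alternatives are not set beside these counts. Of the log2 changes, 2074 either kept a call with its direction or stayed uncalled and moved by less than the spread between replicates. The sign of these uncalled changes was not checked. Another 81 lost a call, 16 gained one and 37 that were not called moved by more than that spread. The remaining 6 reversed, which means that the sign changed and at least 1 of the 2 fits held a call. For DE against water (2 called) the count was 1 with normexp and quantile normalization, 0 when arrays were scaled on their median, 0 with only the groups compared, 0 within each of slides 1, 2 and 3, 1 without the 6 arrays of slide 4 (chosen after seeing the data), and 0 to 2 with one replicate left out. For the 2 µg/cm² dose of NM-203 (7 called against water) it was 3 with slide and 3 with scan day as a block, 4 against the water control of Min-U-Sil 5, and, chosen after seeing the data, 4 with that control and slide as a block and 0 on slide 5 only. NM-203 at 1 µg/cm² had 2 called against that control, TPA had 1 within slide 1, the difference between NM-203 at 5 µg/cm² and TPA had 2 when scaled on the median, and that between NM-203 at 5 µg/cm² and Min-U-Sil 5 had 1 with array weights.

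Against the water control of Min-U-Sil 5, 5 log2 changes with a call in either fit reversed: Casp4 at NM-203 1 µg/cm² (-0.37) and in DE (-0.27), and Nlrp3 at NM-203 1 µg/cm² (-1.16), at 5 µg/cm² (-0.94) and in DE (-1.16). Changes without a call in either fit also turned negative there, among them Casp1 at 1 and 5 µg/cm² (-0.27 and -0.22) and Nlrp3 at 2 µg/cm² (-0.67). Casp12 and Gsdmd likewise turned negative at 1 and 5 µg/cm² and in DE. Without a filter on dim probes Il1rn at 2 µg/cm² gave -0.31, since its other probe then stood for it. Causes of the other moves were not tested. With one replicate left out, counts were 6 to 7 for NM-203 at 2 µg/cm², 4 to 5 at 5 µg/cm², 3 to 4 for TPA and 3 to 4 for the difference between NM-203 at 5 µg/cm² and TPA. With a replicate block the counts were 0, 7 and 4 for NM-203 at 1, 2 and 5 µg/cm², 2 for DE, 5 for Min-U-Sil 5 and 4 for TPA, as without it. Correlations between arrays of the same number, as deviations from their group means, ran from -0.6 to 0.33. These deviations also hold slide effects, so whether the numbers pair the samples stays unknown. Signal near background limits Il1b and Il1rn.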
